A study of Mus musculus with 18 samples.

Results

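Macrophages of the small intestine that carried fluorescent material from epithelial cells were compared with macrophages of the same gate that carried none. The comparison used 6 of the 18 arrays of the series, chosen by their labels: 3 of GFP-plus and 3 of GFP-minus CD11b CD64 macrophages. All came from VDTR mice of both sexes, and the labels give no age. In VDTR mice the promoter of villin, a structural protein of the gut epithelial brush border, drives a diphtheria toxin receptor joined to green fluorescent protein (GFP). Every group, GFP-minus ones included, received diphtheria toxin into the peritoneum at 2 ng per kg, and tissue was taken 4 hours later. The GFP-minus cells are therefore macrophages of a gut in which epithelial cells were dying, not of an untreated gut. Live cells positive for CD45, CD11c, MHCII, CD11b and CD64 were sorted by GFP, and RNA of each sort was amplified and labelled for arrays. For this gate the labels state nothing about CD103. The other 12 arrays, 3 per group, hold GFP-plus and GFP-minus cells of CD103 CD11b CD64 macrophages and of CD103 dendritic cells (DCs), and serve here only for comparison. The labels give an "n value" of 4 without saying what it counts and do not say that replicates came from separate mice. The p-values therefore speak only of the variation among these samples, which may be technical.

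Uptake of a dying cell, or efferocytosis, starts with receptors and bridging proteins that recognise phosphatidylserine on the corpse. Actin then closes the membrane around the corpse, and the phagosome fuses with lysosomes, where acid hydrolases break the contents down. The phagocyte is left with a load of cholesterol, lipid, amino acids and iron that it must store, use or export. Resident macrophages of the gut are replaced largely by blood monocytes, which lose Ly6C and CCR2 and gain CX3CR1, MERTK and other receptors as they mature.

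All values below are on the log2 scale, where 0 marks the median of a probe across the 18 arrays. Differences between groups can be read from them, while the level of one gene against another cannot. The labelled cell type was checked against its defining genes with both GFP gates pooled. Relative to DCs, CD11b CD64 macrophages were higher in Itgam (CD11b) by 4.49 ± 0.17 (SE), Fcgr1 (CD64) by 4.72 ± 0.23, Csf1r by 6.21 ± 0.14, Adgre1 by 4.92 ± 0.18 and C1qa by 5.67 ± 0.25. The DC genes Flt3 and Xcr1 differed by -4.17 ± 0.15 and -4.68 ± 0.38. All these genes passed the test, as did 1800 of 22180 genes in that contrast (8.12%). Of the 17 DC markers listed, 9 passed as lower and 2 as higher in the macrophages, with a median difference of -1.49. Itgae, which encodes CD103, differed from DCs by -5.68 ± 0.46 but from CD103 CD11b CD64 macrophages by only -1.19 ± 0.46 (adjusted p = 0.790). Itgae was thus lower than in the gate labelled CD103, by an amount that did not pass the test over 22180 genes. A missed threshold here does not show that the macrophage gates were alike in Itgae. The GFP-plus arrays correlated with each other more (pairwise r over all probes of 0.269 to 0.52) than the GFP-minus arrays did (-0.0868 to 0.265). With centred values, r also depends on how far a group lies from the probe medians. GFP-minus replicate 1 had the widest spread of values of the 6, with an interquartile range of 0.464 against 0.256 to 0.319 on the others. The depth of an array cannot be counted, and 3 arrays per group limit the precision.

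GFP-plus CD11b CD64 macrophages had more Epb41l3, Antxr1 and Fblim1 RNA than GFP-minus ones, and less Lsp1, Plac8 and S100a11-ps RNA. These 6 genes of 22180 (0.0271%) passed an adjusted p of 0.05, 3 in each direction. Both groups were separate for all of them. In sorted bulk RNA, fewer cells of a type and less RNA per cell cannot be told apart, which holds for each gene below.

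Of the genes that rose, Epb41l3 encodes a band 4.1 protein that ties membrane proteins to the cortical actin and spectrin skeleton. It read 2.09, 3.54 and 2.46 on the GFP-plus arrays and 0.06, 0.03 and 0.49 on the GFP-minus arrays. All 3 GFP-plus arrays were high. The gain was 2.50 ± 0.32 (SE, n = 3 arrays per group; 95% interval 1.82 to 3.19), or 5.67-fold (adjusted p = 0.0155). Antxr1, an anthrax toxin receptor that binds collagens, read 1.12, 0.92 and 1.06 against -0.04, -0.01 and -0.10. The values within each group lay close together, and the gain was 1.09 ± 0.14 (adjusted p = 0.0155). Fblim1, or migfilin, links filamin to adhesion sites. It read 1.88, 1.75 and 1.57 against -0.17, 0.04 and -0.05, a gain of 1.80 ± 0.26 (adjusted p = 0.0295).

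Of the genes that fell, Lsp1 encodes an actin-binding protein of leukocytes. It read -3.04, -3.81 and -3.07 on the GFP-plus arrays and 0.06, -0.46 and -1.43 on the GFP-minus arrays. GFP-minus replicate 3 was the nearest to the GFP-plus arrays, and Lsp1 fell by 2.69 ± 0.34 (adjusted p = 0.0155). Plac8, a cysteine-rich protein abundant in monocytes, read -2.27, -3.65 and -3.47 against 0.05, 0.49 and 0.93. It fell by 3.62 ± 0.49 (95% interval -4.67 to -2.56), the largest change of the 6 and a 12.3-fold difference (adjusted p = 0.018). S100a11-ps read -2.45, -2.86 and -2.49 against -0.61, 0.16 and -0.13, and fell by 2.41 ± 0.33 (adjusted p = 0.018). It is a pseudogene whose sequence nearly matches that of S100a11, a calcium-binding protein, so the probe may read both. The S100a11 probe itself differed by -0.94 ± 0.30 and did not pass (adjusted p = 0.591), although the groups did not overlap.

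**Figure D1:**
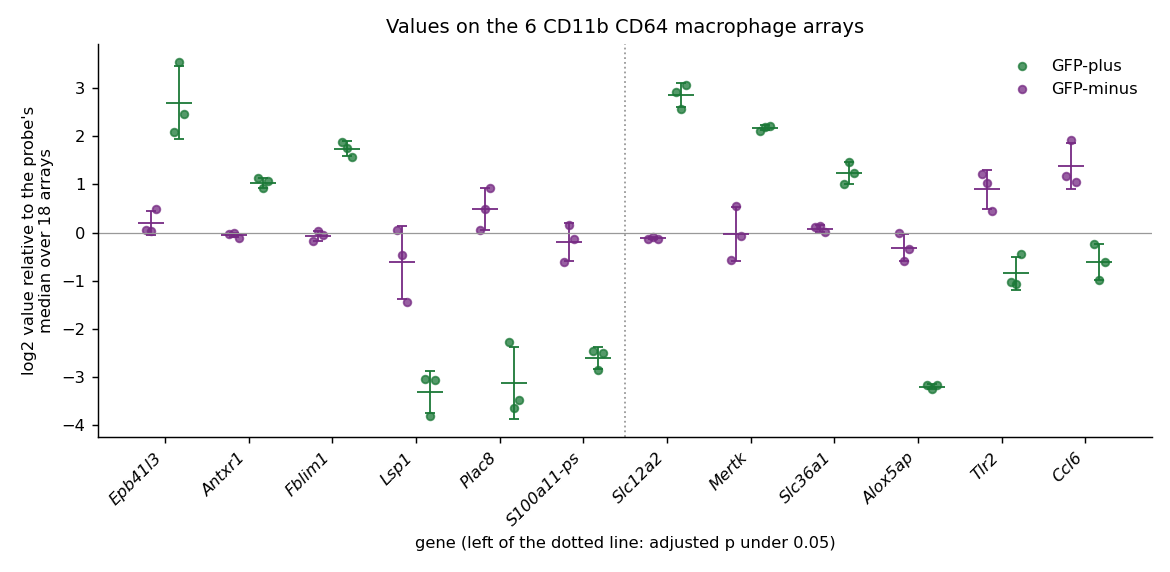
Log2 value, with 0 at the probe's median across 18 arrays (vertical axis), for 12 genes, with 1 point per array; horizontal marks are group means and bars are SDs over 3 arrays. The 6 genes left of the dotted line passed the test; the other 6 did not, although their GFP-plus and GFP-minus points do not overlap.

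The calls rest on few arrays. Without GFP-plus replicate 1 the test called 4 genes, without GFP-plus replicate 2, GFP-plus replicate 3 or GFP-minus replicate 1 it called 0, without GFP-minus replicate 2 it called 1, and without GFP-minus replicate 3 it called 34. Those 3 counts of 0 from limma stood beside 1169, 866 and 813 of 22180 genes at an unadjusted p under 0.05. With no difference between the groups, a share of 0.05 is expected there, so these counts alone do not show changes below the threshold. A fit to the 6 arrays alone called 7 genes, of which Fblim1 alone is among the 6, while weighting arrays by their estimated quality called 53 that include all 6. In the 16 alternative fits that were run, each of the 6 genes passed in 9 to 11 and kept its direction in all. The direction was hardly at stake. With separate groups, leaving out 1 array cannot reverse a change, and fits that alter only the variances leave the change as it was.

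Below the threshold, more genes were higher than lower in GFP-plus cells. At an unadjusted p under 0.05, 967 genes were higher (4.36%) and 400 lower (1.8%). The groups did not overlap for 2136 genes with higher (9.63%) and 1384 with lower values in GFP-plus cells (6.24%). Of all genes, 51.9% had a change above 0, and the median change was 0.01. These shares are the background for the counts that follow.

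Of the 9 higher genes with the smallest p-values that did not pass, 8 are given here and Mertk with the receptors for apoptotic cells. Slc12a2, a cotransporter of sodium, potassium and chloride, read 2.92, 2.57 and 3.06 on the GFP-plus arrays and -0.13, -0.09 and -0.13 on the GFP-minus arrays. The gap was wide and clean, at 2.97 ± 0.52, but the spread pooled over all groups left it short of the threshold (adjusted p = 0.136). Slc36a1, a symporter of protons and amino acids on lysosomes, read 1.01, 1.47 and 1.23 against 0.12, 0.13 and 0.01, a difference of 1.15 ± 0.22 (adjusted p = 0.174). Pikfyve, the kinase that makes the phosphoinositide of late endosomes, differed by 1.30 ± 0.23 (adjusted p = 0.136). Mfsd8, a lysosomal membrane transporter, differed by 0.86 ± 0.17. Acadsb, a mitochondrial enzyme of branched-chain amino acid breakdown, differed by 1.22 ± 0.22, and Hacd4, an enzyme of fatty acid elongation, by 1.01 ± 0.18. Skp2, the ubiquitin ligase subunit that marks the cell cycle inhibitor p27 for breakdown, differed by 1.65 ± 0.32, and Gm13391, a predicted gene, by 1.27 ± 0.22. None of these passed.

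Of the 9 lower genes with the smallest p-values that did not pass, 8 are given here and Itgb7 with the integrins. Alox5ap, the membrane protein that presents arachidonic acid to 5-lipoxygenase for leukotriene synthesis, read -3.17, -3.25 and -3.16 against -0.02, -0.58 and -0.34. The 3 GFP-plus arrays were nearly equal, and the difference was -2.88 ± 0.55 (adjusted p = 0.174). Tlr2, a receptor for bacterial lipoproteins, differed by -1.74 ± 0.33. Ccl6, a chemokine of myeloid cells, differed by -1.99 ± 0.41, Crip1, a small LIM-domain protein, by -1.68 ± 0.33, and Anxa2, a phospholipid-binding annexin, by -1.96 ± 0.41. F10, coagulation factor X, differed by -1.07 ± 0.21, the microRNA gene Mir452 by -0.84 ± 0.15 and the histone H4 gene H4c17 by -0.62 ± 0.13. The adjusted p-values of the 8 ran from 0.136 to 0.220.

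The receptors and bridging proteins for apoptotic cells included large differences, none of which passed. Of 30 such genes, 20 were above 0, beside 51.9% of all genes, and the median change was 0.21. For 13 of the 30, beside 9.63% of all genes, the GFP-plus arrays were all above the GFP-minus arrays. Mertk, the receptor tyrosine kinase that takes up phosphatidylserine-bearing cells, read 2.11, 2.20 and 2.21 on the GFP-plus arrays and -0.56, 0.56 and -0.06 on the GFP-minus arrays. The GFP-plus arrays were nearly identical while the GFP-minus arrays were scattered, and the difference was 2.20 ± 0.41 (adjusted p = 0.167). Gas6, the bridging protein that joins phosphatidylserine to MERTK, read 0.92, 1.75 and 1.11 against -1.27, -1.14 and -0.13, a difference of 2.10 ± 0.48 (adjusted p = 0.317). The receptor and its ligand were thus both higher on every GFP-plus array than on any GFP-minus array. Timd4, the phosphatidylserine receptor TIM-4, read 1.25, 1.82 and 2.24 against -2.63, -0.54 and -0.10. Its difference of 2.86 ± 0.90 leaned on GFP-minus replicate 1, the lowest array (adjusted p = 0.564). Stab1, a scavenger receptor that binds phosphatidylserine, differed by 0.90 ± 0.25, Lrp1, a receptor for calreticulin-marked cells, by 1.62 ± 0.55, and Itgav, the alpha chain of the integrin that binds MFG-E8, by 0.96 ± 0.39.

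Engulfment and phagosome genes lay above 0 in 19 of 26, with a median of 0.33 and 0 passing. Leaving out GFP-minus replicate 1 gave a median of 0.19, and leaving out GFP-minus replicate 3 gave 0.54. Dock1, the exchange factor that turns on RAC1 at the phagocytic cup, read 0.86, 1.28 and 1.15 against -0.18, -0.47 and 0.72 (difference 1.08 ± 0.32, adjusted p = 0.529). Rac1, the GTPase it acts on, read 0.53, 0.14 and 0.27 against -0.33, -0.32 and -0.17 (difference 0.59 ± 0.18, adjusted p = 0.532). For both genes the lowest GFP-plus array was above the highest GFP-minus array. The endosomal GTPases Rab14 and Rab7 differed by 0.88 ± 0.34 and 0.46 ± 0.25.

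Lysosome genes were nearly all higher in GFP-plus cells, by small amounts. Of 27 hydrolases and cathepsins, 27 had a change above 0 (median 0.32), and of 29 genes of the lysosomal membrane and proton pump, 28 did (median 0.48, or 0.32 without GFP-minus replicate 1). In all, 55 of 56 (98.2%) lay above 0 beside 51.9% of all genes, and 23 (41.1%) had GFP-plus arrays all above the GFP-minus arrays beside 9.63%. Of the 27 and 29 genes, 21 and 19 passed as higher in CD11b CD64 macrophages than in DCs. Genes higher in CD103 CD11b CD64 macrophages than in DCs, described below, were themselves above 0 in 78.8% and separate upward in 29.4%. The lysosome shares are thus less far from those of macrophage genes than from those of all genes. No single lysosome gene passed, and 7 had an unadjusted p under 0.05. The changes ran from -0.06 to 1.06. Cd63, a tetraspanin of lysosomes, read 0.80, 0.68 and 0.76 against 0.01, 0.36 and -0.01 (difference 0.62 ± 0.18, adjusted p = 0.529). Neu1, a sialidase, read 1.01, 0.73 and 0.57 against -0.34, -0.62 and 0.52 (difference 0.91 ± 0.27, adjusted p = 0.530). Both were separate between the groups, Neu1 by a narrow gap at GFP-minus replicate 3. Lipa, the acid lipase that frees cholesterol from its esters, differed by 0.88 ± 0.32, Slc29a3, a lysosomal nucleoside transporter, by 0.90 ± 0.28, and the proton pump subunit Atp6v1e1 by 0.65 ± 0.22.

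Transcription factors of the TFEB family bind a site known as the CLEAR element near the start of many lysosome genes. The promoters below are shown because nearly all lysosome genes lay on the same side of 0. The letters TCACGTGA read the same on both strands. They were searched in the 250 bases before the start of genes in RefSeq sequences of mouse build GRCm38.p6. Genes of 1 chromosome were left out of this search and of every count of promoter letters here. The letters were found for 5 of the 46 lysosome genes with a searched sequence (10.9%) and for 245 of the 27025 genes searched (0.907%). Of the genes of the other 4 lists searched, 1 of 23 apoptotic cell receptor genes held them and 0 of the cholesterol, monocyte and resident macrophage genes. The AP-1 letters TGAGTCA, searched on both strands, were in 5 of the 46 lysosome genes as well (10.9%, beside 5.16% of all genes), 2 of 15 cholesterol, 1 of 16 resident macrophage, 0 of 16 monocyte and 0 of 23 apoptotic cell receptor genes. A match is a description of the sequence and does not show binding. The shares were counted from sequence alone and do not depend on the array values. Whether the TFEB family had a part in the changes was not tested. The stretches of 100 bases that hold the matches are given 5′ to 3′ on the gene's strand, with the matched letters in capitals:
Ctsd, chr7:142387873-142387972, minus strand: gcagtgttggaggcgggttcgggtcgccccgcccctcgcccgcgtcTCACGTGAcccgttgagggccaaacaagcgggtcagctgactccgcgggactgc
Ctsa, chr2:164833673-164833772, plus strand: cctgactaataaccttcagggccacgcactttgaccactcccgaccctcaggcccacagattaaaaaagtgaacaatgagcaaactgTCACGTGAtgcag
Gla, chrX:134601156-134601255, minus strand: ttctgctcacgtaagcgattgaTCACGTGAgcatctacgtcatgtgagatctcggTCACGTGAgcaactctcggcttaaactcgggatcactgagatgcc
Mcoln1, chr8:3500419-3500518, plus strand: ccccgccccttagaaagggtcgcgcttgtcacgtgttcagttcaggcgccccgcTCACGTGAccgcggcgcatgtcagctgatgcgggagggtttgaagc
Atp6v1a, chr16:44139338-44139437, minus strand: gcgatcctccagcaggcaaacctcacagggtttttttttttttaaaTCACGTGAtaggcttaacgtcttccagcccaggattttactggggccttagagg

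Of the genes that hold the letters, Mcoln1, a calcium channel of lysosomes, read 0.54, 0.68 and 0.87 on the GFP-plus arrays and -0.30, -0.04 and 0.06 on the GFP-minus arrays. The difference was 0.79 ± 0.32, with no overlap. Ctsa, a protective carboxypeptidase, differed by 0.40 ± 0.22, also without overlap. The proton pump subunit Atp6v1a differed by 0.49 ± 0.54, the aspartic protease gene Ctsd by 0.28 ± 0.29 and the galactosidase gene Gla by 0.18 ± 0.63. These 3 were within 1 SE of 0, and none of the 5 passed.

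Genes for cholesterol synthesis were above 0 in 17 of 19 (median 0.56). In 7 of 19 the GFP-plus arrays were all above the GFP-minus arrays, beside 9.63% of all genes. Hsd17b7, an enzyme late in the pathway, read 1.35, 1.02 and 1.28 against -0.64, -1.05 and -0.07 (difference 1.81 ± 0.63, adjusted p = 0.653). Hmgcs1, which makes the substrate of HMG-CoA reductase, read 0.64, 0.77 and 1.14 against -1.94, -0.69 and 0.12 (difference 1.69 ± 0.71, adjusted p = 0.775). GFP-minus replicate 1 was the lowest array for Hmgcs1, and without that array the median of the list was 0.29. Sqle, squalene epoxidase, differed by 0.87 ± 0.37. The Hmgcs1 promoter held the letters TCACNCCAC of a sterol regulatory element, where N is any base, searched on both strands. These occurred in 1 of the 15 cholesterol genes with a sequence and in 1.22% of all promoters of the same length. They were also in 1 of 46 lysosome and 0 of 16 monocyte genes. Timd4, which is in both lists, held them as 1 of 16 resident macrophage and 1 of 23 apoptotic cell receptor genes. The Hmgcs1 stretch is shown with the match in capitals:
Hmgcs1, chr13:119690168-119690267, plus strand: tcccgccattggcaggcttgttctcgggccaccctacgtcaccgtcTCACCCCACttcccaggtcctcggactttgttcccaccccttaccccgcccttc

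Genes that handle the products of digestion were mostly above 0. Of 25 genes for lipid uptake, storage and export, 20 were above 0 (median 0.45, or 0.29 without GFP-plus replicate 3). Msr1, a scavenger receptor for modified lipoproteins, read 0.87, 0.99 and 0.85 against 0.30, 0.05 and 0.04 (difference 0.77 ± 0.24, adjusted p = 0.559). Abca1, which exports cholesterol, read 0.91, 0.48 and 1.35 against -0.49, -0.43 and 0.59 (difference 1.03 ± 0.33, adjusted p = 0.591), and its groups overlapped at GFP-minus replicate 3. Of 16 iron and heme genes, 15 were above 0 (median 0.61, or 0.37 without GFP-minus replicate 1). Slc40a1, or ferroportin, the exporter of iron, read 1.37, 2.25 and 1.79 against -0.64, 0.13 and 0.70 (difference 1.74 ± 0.42, adjusted p = 0.370). No lipid or iron gene passed. The solute carriers that engulfing phagocytes are known to use, 16 in number, were less uniform, with 10 above 0 and a median of 0.17. Leaving out 1 array at a time put that median between 0.01 (GFP-minus replicate 1 left out) and 0.31 (GFP-minus replicate 3 left out), with 0.08 when GFP-plus replicate 3 and 0.31 when GFP-plus replicate 2 was left out.

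**Figure D2:**
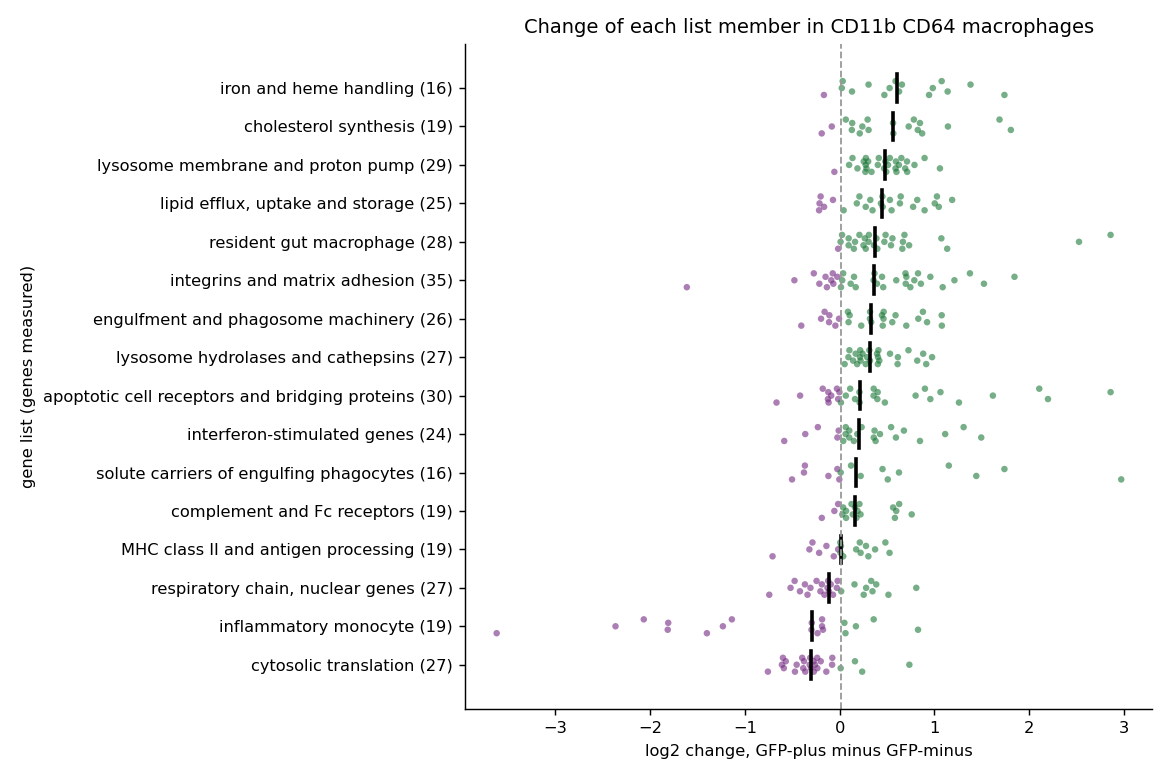
Log2 change, GFP-plus minus GFP-minus (horizontal axis), of each measured gene in 16 gene lists; each point is 1 gene, green above 0 and purple below, the black bar is the list's median and the dashed line the median of all 22180 genes. All but 1 of the 56 lysosome genes lie right of 0, and 23 of 27 translation genes lie left of it.

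GFP-plus cells read lower for genes of inflammatory monocytes and higher for genes of resident gut macrophages. Of 19 monocyte genes, 14 were below 0 and 10 had GFP-plus arrays all below the GFP-minus arrays, beside 6.24% of all genes. Plac8 was the only monocyte gene that passed. Ccr2, the chemokine receptor that brings monocytes out of the marrow, read -0.34, -0.16 and -0.13 on the GFP-plus arrays and 1.79, 1.46 and 1.55 on the GFP-minus arrays. The gap was wide in each direction, and the difference was -1.81 ± 0.57 (adjusted p = 0.564). Ly6c2, the surface marker of inflammatory monocytes, read 0.35, -0.42 and -0.93 against 2.04, 0.90 and 2.25 (difference -2.07 ± 0.58, adjusted p = 0.512). S100a4, a calcium-binding protein of motile myeloid cells, read 1.13, 0.16 and -0.68 against 2.84, 3.20 and 1.66 (difference -2.36 ± 0.60, adjusted p = 0.410). Groups were separate for all 3. Hp, haptoglobin, differed by -1.40 ± 0.35, and Clec4e, the receptor Mincle, by -1.23 ± 0.49. The median of the 19 genes was -0.29, or -0.19 without GFP-plus replicate 2, and -0.72 among those that passed a filter on spread. The PU.1 letters GAGGAAGT, searched on both strands, were in 3 of 16 monocyte and 3 of 16 resident macrophage promoters beside 2.79% of all genes. They were also in 3 of 23 apoptotic cell receptor, 2 of 46 lysosome and 0 of 15 cholesterol promoters. C1qc is counted in both the resident macrophage and the receptor list. The mean of the monocyte list was between -0.25 and 0.09 on GFP-plus arrays and between 0.56 and 0.91 on GFP-minus arrays.

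Of 28 resident macrophage genes, 27 were above 0 (median 0.37). For 14 of the 28 the GFP-plus arrays were all above the GFP-minus arrays, beside 9.63% of all genes. None of the 28 passed. Some of them, such as Timd4 and C1qc, are also among the apoptotic cell receptor genes, so the counts of these lists are not separate from each other. Cd4, which long-lived macrophages of the mouse gut carry together with TIM-4, read 2.85, 2.32 and 2.82 against -0.85, 0.33 and 0.94 (difference 2.52 ± 0.69, adjusted p = 0.473). Cx3cr1, the fractalkine receptor of mature gut macrophages, read 0.72, 0.75 and 0.78 against -0.24, -0.01 and 0.30 (difference 0.73 ± 0.31, adjusted p = 0.779). Csf1r, the receptor for the growth factor on which macrophages depend, read 0.70, 0.63 and 0.74 against 0.11, 0.02 and 0.31 (difference 0.54 ± 0.20, adjusted p = 0.698). The GFP-plus arrays were close to each other in all 3 genes. Tgfbr2, a receptor chain for TGF-beta, differed by 1.07 ± 0.36. Because Cd4 also marks T cells, the lymphocyte list is given beside it: of 18 markers of T and innate lymphocytes, 8 were above 0, the median was -0.12 (leaving out GFP-minus replicate 1 gave 0.02, GFP-minus replicate 2 0.01 and GFP-plus replicate 1 -0.04), and the list's mean ran from -0.06 to 0.01 on GFP-plus arrays and from -0.30 to 0.08 on GFP-minus arrays.

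A list drawn from arrays outside this comparison showed the same side. Among 1182 genes higher in CD103 CD11b CD64 macrophages than in DCs, 932 (78.8%) were above 0 in the CD11b CD64 comparison (median 0.36). GFP-plus arrays were all above the GFP-minus arrays for 29.4% of them, beside 9.63% of all genes. Among 576 genes higher in DCs, 347 (60.2%) were above 0, with a median of 0.10. Of these DC genes, 13.4% had GFP-plus arrays all above and 7.64% all below, beside 9.63% and 6.24% of all genes. Without any one of the 6 arrays the share above 0 for the macrophage genes stayed between 75.1% and 80.8%. For the DC genes it fell to 52.4% without GFP-minus replicate 1, when 52.4% of all genes were above 0. After quantile normalization it was 49.8%, with a median of -0.0017, beside 47.8% of all genes, while the share for the macrophage genes was 76.9%. Markers of mature macrophages and the spread of GFP-minus replicate 1 moved with this result, and their part in it was not tested.

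**Figure D3:**
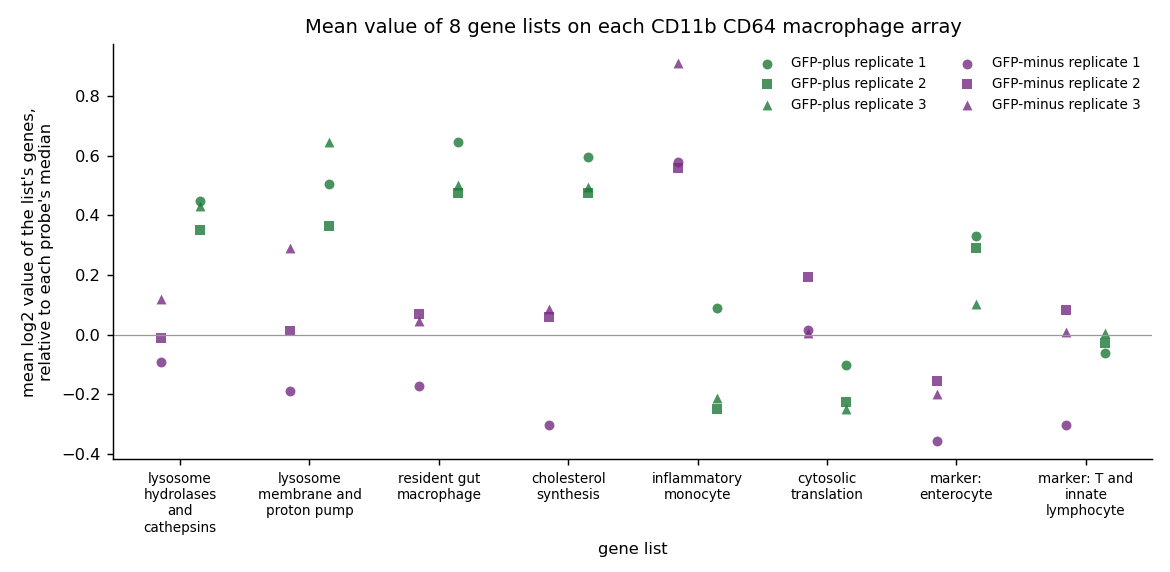
Mean log2 value of the measured genes of 8 lists (horizontal axis), relative to each probe's median (vertical axis), with 1 symbol per array. GFP-plus arrays lie above GFP-minus arrays for lysosome, resident macrophage, cholesterol and enterocyte genes and below them for monocyte and translation genes, while lymphocyte markers overlap.

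Adhesion and cytoskeleton genes changed in both directions. Of 35 genes of integrins and matrix adhesion, 25 were above 0 (median 0.37, or 0.23 without GFP-minus replicate 1), and Antxr1 passed. GFP-plus arrays were higher throughout in 14 and lower throughout in 4, beside 9.63% and 6.24% of all genes. Itgb7, the beta chain of the gut-homing integrin, read -1.40, -1.40 and -1.54 against -0.0001, 0.28 and 0.21 (difference -1.61 ± 0.34, adjusted p = 0.220). Itgal, the alpha chain of LFA-1, read 1.42, 1.75 and 2.21 against 0.04, -0.27 and 1.04 (difference 1.52 ± 0.49, adjusted p = 0.591). The 2 leukocyte integrin chains thus lay on opposite sides, without overlap. Itga9, Vcam1 and Mmp9, an integrin chain, its ligand and a gelatinase, differed by 1.21 ± 0.35, 0.86 ± 0.25 and 0.79 ± 0.24. Among 38 actin and cortical cytoskeleton genes, Epb41l3 and Fblim1 rose and Lsp1 fell, 25 were above 0, and the median was 0.12. Both without GFP-minus replicate 1 and after quantile normalization that median was 0.02. Tmsb10, a thymosin that holds actin monomers, read -0.96, -0.80 and -0.96 against 0.18, -0.04 and 0.03 (difference -0.96 ± 0.21, adjusted p = 0.260), and Capg, which caps actin filaments, differed by -1.10 ± 0.35. The list therefore contains opposite changes.

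Inflammatory mediators were divided too. Of 35 cytokine and chemokine genes, 18 were above 0, 17 below, and none passed. Some chemokines lay well below 0, Ccl6 above among them. Ccl17, a chemokine that draws CCR4-bearing T cells, read -0.41, -1.83 and -1.74 against 0.82, 1.20 and 0.69 (difference -2.23 ± 0.47, adjusted p = 0.228). Ccl9 read 0.11, -0.24 and -1.81 against 1.84, 1.96 and 0.82 (difference -2.19 ± 0.56, adjusted p = 0.410). On the other side, Cxcl9, a ligand of CXCR3, differed by 0.58 ± 0.23. Of 31 genes that restrain inflammation, 23 were above 0. Their median of 0.13 became 0.03 when GFP-minus replicate 1 was left out and 0.24 when GFP-plus replicate 2 was. It was 0.06 with GFP-plus replicate 1 left out, 0.22 with GFP-minus replicate 3 left out and 0.07 after quantile normalization. The members farthest from 0 lay on opposite sides. Gpnmb, a glycoprotein of lipid-loaded macrophages, read 3.43, 3.45 and 3.64 against -0.10, 0.80 and 2.14 (difference 2.56 ± 0.71, adjusted p = 0.480). Tnip3, an inhibitor of NF-kappa-B signalling, read -0.84, -1.46 and -0.89 against 0.96, 1.71 and 1.95 (difference -2.60 ± 0.67, adjusted p = 0.410).

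Interferon-stimulated genes were above 0 in 19 of 24, with a median of 0.21. Stat2, which carries the interferon signal to the nucleus, read 0.26, -0.22 and 0.24 against -1.76, -0.87 and -1.01 (difference 1.31 ± 0.40, adjusted p = 0.559). The list's median ran from 0.10 without GFP-minus replicate 1 to 0.44 without GFP-minus replicate 3. Of 19 genes of MHC class II and antigen processing, which include class I genes such as Tap1 and H2-K1, 12 were above 0, the median was 0.01 (0.0017 to 0.17 over the alternatives), and none had an unadjusted p under 0.05. Complement and Fc receptor genes were above 0 in 16 of 19 (median 0.16), among them the anaphylatoxin receptor C5ar1 at 0.58 ± 0.17 (adjusted p = 0.529). No gene of these 3 lists passed.

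Genes of cytosolic translation were lower in GFP-plus cells in 23 of 27 (median -0.30), and 11 of 27 had groups without overlap, beside 6.24% of all genes in that direction. None passed. Rpsa, a protein of the small ribosomal subunit, read -0.97, -0.73 and -0.82 on the GFP-plus arrays and -0.13, 0.29 and -0.41 on the GFP-minus arrays (difference -0.76 ± 0.19, adjusted p = 0.410). The initiation factor gene Eif3f and the elongation factor gene Eef1g differed by -0.59 ± 0.16 and -0.60 ± 0.17. In quantile normalized values the median of the list was -0.52. Nuclear genes of the respiratory chain were below 0 in 18 of 27 (median -0.11, or -0.05 without GFP-plus replicate 3), and 9 of 18 glycolysis and hypoxia genes were above 0.

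A few abundant enterocyte genes read higher in the GFP-plus sorts, and none passed. Fabp2, the intestinal fatty acid binding protein, read 2.06, 1.60 and 0.80 on the GFP-plus arrays and -1.64, -1.14 and -1.32 on the GFP-minus arrays. The groups were far apart, yet the spread left the difference of 2.85 ± 0.90 short of the threshold (adjusted p = 0.574). Rbp2, which binds retinol in enterocytes, read 2.41, 1.58 and -0.14 against -0.72, -0.62 and -1.0 (difference 2.07 ± 0.57, adjusted p = 0.480). Fabp6, the ileal bile acid binding protein, differed by 2.57 ± 0.89, and Fabp1 by 2.03 ± 0.71, both without overlap. Of 32 enterocyte markers, 18 were above 0 and 0 passed. Their median was 0.10, or 0.03 without GFP-plus replicate 1 and 0.06 without GFP-minus replicate 1. GFP-plus arrays were all above the GFP-minus arrays for 8 of 32, beside 9.63% of all genes. The mean of the list was 0.10 to 0.33 on GFP-plus and -0.36 to -0.15 on GFP-minus arrays. The other defining genes Epcam, Vil1 and Apoa1 stayed between -0.41 and 0.37 on the 6 arrays, and their groups overlapped. The GFP effect on Fabp2 was 2.47 ± 0.90 in CD103 CD11b CD64 macrophages and 1.97 ± 0.90 in DCs. Whether this RNA lay inside the macrophages, on them or in the sorted fluid was not tested.

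Markers of other cells had list medians near 0. They were -0.08 for 17 DC markers, 0.01 for 11 B and plasma cell markers, -0.07 for 14 neutrophil markers, -0.10 for 16 eosinophil and mast cell markers, -0.03 for 18 secretory epithelium markers and 0.11 for 19 markers of stroma, endothelium and glia. None of their genes passed. Only the stromal median kept within 1.5 times of its value without single arrays; over all alternatives the DC median ran from -0.40 to -0.01, that of B cells from -0.03 to 0.09, of neutrophils from -0.18 to 0.02, of eosinophils and mast cells from -0.15 to -0.04 and of secretory cells from -0.09 to 0.06. The mean of the eosinophil and mast cell list did not overlap between the groups, at -0.04 to 0.01 on GFP-plus and 0.03 to 0.16 on GFP-minus arrays. Its member Hdc, which makes histamine, read -0.11, 0.17 and -0.09 against 0.31, 0.38 and 2.11 (difference -0.94 ± 0.34, adjusted p = 0.687), the highest being GFP-minus replicate 3. The part of these cells in the results was not tested. Dcn, a proteoglycan of fibroblasts, read 0.30, 1.64 and 1.19 against -0.79, -0.43 and -0.71 (difference 1.69 ± 0.46, adjusted p = 0.479). Pecam1, an adhesion protein of endothelium that myeloid cells also carry, read 1.81, 1.95 and 1.81 against -0.78, 0.71 and 1.10 (difference 1.52 ± 0.44, adjusted p = 0.519). Neither overlapped between the groups. The stromal list's mean was 0.06 to 0.24 on GFP-plus and -0.14 to -0.02 on GFP-minus arrays. The part of stromal RNA in the results was not tested.

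Set against the most similar population, the CD103 CD11b CD64 macrophages, no gene passed the test of a different GFP effect (0% of 22180 genes). In that limma test 834 genes had an unadjusted p under 0.05, where a share of 0.05 is expected with no difference. Lsp1 and Epb41l3 passed in both macrophage populations, with effects of -2.80 ± 0.34 and 2.40 ± 0.32 in the one with CD103. Antxr1 had the smallest p for a difference: its effect was 1.09 ± 0.14 here and -0.10 ± 0.14 there, a difference of 1.19 ± 0.20 that did not pass (adjusted p = 0.709). Plac8 and Fblim1 had effects of -2.71 ± 0.49 and 1.11 ± 0.26 there. A missed threshold does not show that the populations responded alike.

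Set against CD103 DCs, 118 of 22180 genes (0.532%) had a different GFP effect, 100 more positive and 18 more negative in the CD11b CD64 macrophages. Lsp1, Epb41l3, Antxr1 and Fblim1 were among those that passed, with differences of -2.84 ± 0.48, 2.64 ± 0.45, 1.18 ± 0.20 and 1.81 ± 0.37 and effects in DCs between -0.14 and 0.15. Plac8 did not pass: its effect in DCs was -1.92 ± 0.49, and the difference was -1.70 ± 0.70 (adjusted p = 0.264). Ccl17 had effects of opposite sign, at -2.23 ± 0.47 here and 2.85 ± 0.47 in DCs, and the difference of -5.08 ± 0.67 passed (adjusted p = 0.00447). Acadsb, at 1.22 ± 0.22 here and -1.47 ± 0.22 in DCs, and Pla2g7, an enzyme that inactivates platelet-activating factor, at 0.60 ± 0.20 and -1.69 ± 0.20, also differed (adjusted p = 0.00237 and 0.00358). Ccr2 had effects of -1.81 ± 0.57 here and -2.13 ± 0.57 in DCs, and passed in neither. Itgb7 had effects of -1.61 ± 0.34 here, which did not pass, and -1.74 ± 0.34 in DCs, which did (adjusted p = 0.0222). The differences for both genes did not pass (adjusted p = 0.874 and 0.921). Some list medians lay on opposite sides of 0 in the 2 populations. Those for lysosomal hydrolases, resident macrophage genes and cholesterol synthesis were -0.33, -0.44 and -1.08 in DCs beside 0.32, 0.37 and 0.56 here. In CD103 CD11b CD64 macrophages these medians were 0.05, 0.29 and 0.04. The opposite sides were not particular to these lists. Most lists had a median below 0 in DCs, such as -0.89 for the cell cycle and -0.36 for engulfment, while some lay above, such as secretory epithelium at 0.20. Other lists lay on the same side of 0, among them cytosolic translation, at -0.25 in DCs and -0.30 here. Nuclear respiratory chain genes had medians of -0.66 in DCs and -0.11 here. The differences between list medians were not tested. Without single CD11b CD64 arrays the count of 118 became 41 (GFP-plus replicate 3), 46 (GFP-plus replicate 1), 47 (GFP-plus replicate 2), 57 (GFP-minus replicate 2), 71 (GFP-minus replicate 1) and 354 (GFP-minus replicate 3).

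**Figure D4:**
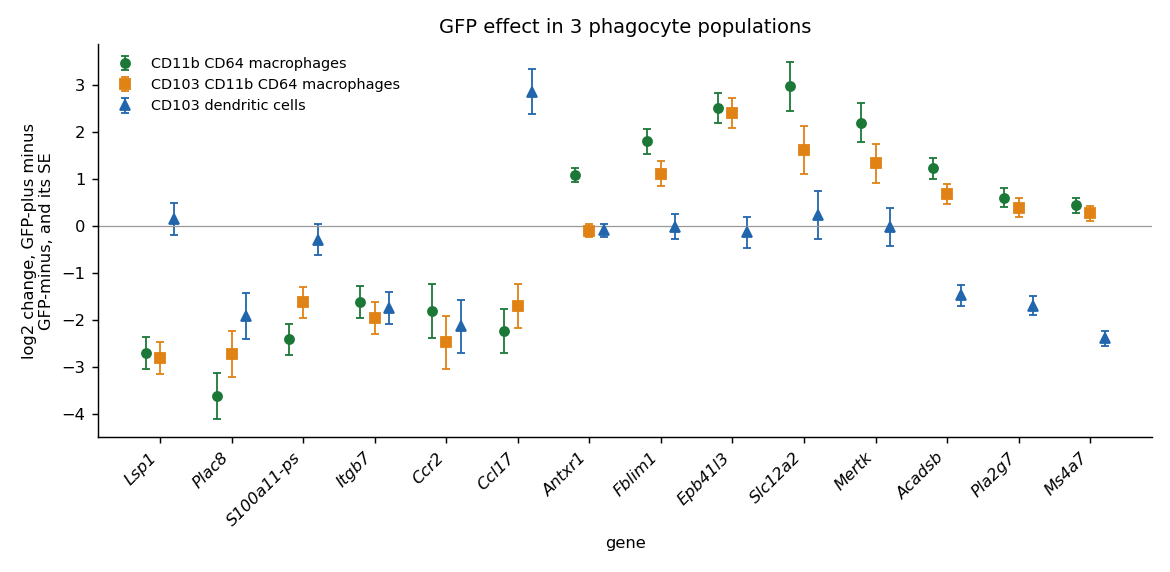
Log2 change, GFP-plus minus GFP-minus, with its SE (vertical axis) for 14 genes in 3 phagocyte populations, each from 3 arrays per group. Lsp1 and Epb41l3 lie together in both macrophage populations and near 0 in DCs, Antxr1 stands off 0 in CD11b CD64 macrophages alone, and Ccl17 points in opposite directions in macrophages and DCs.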

How the data were processed

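RNA from 18 sorted phagocyte samples was measured on mouse gene arrays. The deposited table holds log2 values for 33793 probes, each centred on its median over the arrays. The base of the log was inferred from the range of the values. Per the labels, amplification by NuGEN's WT Ovation Pico kit started from 1 ng of RNA. How the authors summarised and normalized the arrays was not stated in the sources used here.

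Probes with 1 gene symbol (23521) were averaged per gene, which left 22180 genes. The 10272 probes with several symbols or none were tested apart, and 0 passed. At an unadjusted p under 0.05 in limma there were 477, where a share of 0.05 is expected with no difference. The 18 arrays entered 1 linear model with 6 group means (limma 3.58.1, R 4.3.3), whose variances were moderated by empirical Bayes. Two-sided p-values were adjusted by the Benjamini-Hochberg method over the 22180 genes, and a gene with an adjusted p under 0.05 is said to have passed. The GFP effects of different populations were compared by interaction contrasts. The procedure was tested on simulated data. No 2 arrays held identical values.

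Gene lists (34, with 760 of 822 entries measured) are described by counts, medians and means per array, with no test. Named genes are those passing, the 12 smallest p-values in each direction, up to 6 per list, the sort and cell type markers, and up to 10 per interaction. Ctsd, Gla and Atp6v1a were named for their promoter letters, and Ccl17's difference from DCs was picked after its values were seen. The members and lists were chosen with earlier results of these data known. Alternatives varied normalization, arrays, weights, probes, filters and replicates. A planned filter on signal level was replaced by one on spread, because the values hold no absolute level.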

Additional observations from a re-analysis of the deposited data

Results flagged for a closer look

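The 10 genes below had a GFP effect in CD11b CD64 macrophages that differed from that in CD103 DCs in the interaction test of limma, and they had the smallest p-values of the 118 that passed. Each value is the log2 effect in the macrophages minus the log2 effect in DCs, with 3 arrays per group. Ms4a7, a tetraspan protein of macrophages, had a difference of 2.82, with an effect of 0.44 in the macrophages and -2.38 in DCs. Pla2g7, the hydrolase of platelet-activating factor, had a difference of 2.30, and Acadsb one of 2.70. Trit1, an enzyme that modifies transfer RNA, had a difference of 3.65, Zfp367 of 3.12 and Drg2, a GTP-binding protein, of 2.82. Haspin, a kinase of histone H3 in mitosis, had a difference of 3.17, Dapk2, a death-associated kinase, of 3.86, and Gm3336 of 2.07. Nudt17 was the only one of the 10 with a negative difference, at -3.20. The effect in DCs was larger in size than that in the macrophages for each of the 10 genes, and among the 10 the macrophage effect ran from -0.46 for Dapk2 to 1.22 for Acadsb. All 10 kept their direction in the 14 alternative fits that hold DCs, although fits that alter only the variances cannot change a direction.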

How the results depend on the processing

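The count of 6 genes became 22 after quantile normalization, 1 with the 12 macrophage arrays alone, 53 with array weights and 16 without the arrays of weight under 0.5, none of which belongs to this comparison. Leaving out single arrays gave 0 to 34. The count was 6 or 7 with centred columns, the most variable probe, robust variances, a filter on spread or the 6 arrays alone. For the difference from CD103 CD11b CD64 macrophages the count of 0 became 4 without the arrays of weight under 0.5 and 0 to 1 without single arrays. For the difference from DCs, 118 became 32 after quantile normalization, 438 with array weights, 190 without the arrays of low weight and 41 to 354 without single arrays. Gla changed direction without GFP-minus replicate 1, and its change ran from -0.0671 to 0.346 over the fits without single arrays. No other gene named for its GFP effect changed direction. Quantile normalization gave 9 higher and 13 lower genes beside 3 and 3. The labels do not say whether replicate numbers pair the samples. After group means were removed, same-numbered GFP-plus and GFP-minus arrays correlated at 0.00762, 0.0701 and 0.248. Arrays with different numbers correlated between -0.213 and 0.147. With 3 arrays per group these values cannot settle the pairing. With the replicate number as a block, 9 genes passed, 0 differed from the other macrophages and 196 from DCs. The causes of these shifts were not tested. Relative values hide which genes were detected, so a change cannot be told from one at the edge of detection.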

Other observations

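Genes of the cell cycle and of the MS4A family were examined apart from the comparisons above. Of 25 cell cycle genes, 17 were above 0 (median 0.13, or 0.09 without GFP-minus replicate 2) and none passed, so that division genes were not seen to differ at this number of arrays. Cdk1, the kinase that starts mitosis, read 0.87, 0.64 and -0.0019 on GFP-plus arrays and -0.74, -0.30 and -0.56 on GFP-minus arrays, a difference of 1.04 ± 0.61 (adjusted p = 0.871). Of 14 MS4A genes, 6 were above 0. Ms4a4a read 1.43, 1.75 and 1.71 against -1.94, 1.04 and 1.17, so that its difference of 1.54 ± 0.62 (adjusted p = 0.752) leaned on GFP-minus replicate 1.

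Eicosanoid genes were mixed. Beside Alox5ap, Ptges, a prostaglandin E synthase, differed by -0.38 ± 0.14 and Pla2g2d, a secreted phospholipase, by 1.02 ± 0.41. In CD103 CD11b CD64 macrophages Pla2g2d passed, with a GFP effect of 2.78 ± 0.41.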
